A study of Mus musculus with 4 samples.

Results

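Granins and prohormone processing genes were followed as 9 of the 27998 gene identifiers in single-cell RNA sequencing of the mouse embryonic pancreas at embryonic day 15.5. The 9 were chosen by name and not by their values, and all had a row in the count tables: the granins Chga, Chgb, Scg2 and Scg3, the convertases Pcsk1 and Pcsk2, their partners Pcsk1n and Scg5, and the carboxypeptidase Cpe. The OGT KO library came from PdxCre;OGTflox/flox;CAG GFP embryos, in which Cre under Pdx promoter control deletes the floxed Ogt gene in the early pancreatic lineage, and its cells were sorted on the GFP they carried. The control library, labelled WT, came from OGTflox/flox embryos whose cells were sorted on E-cadherin GFP. Both genotypes thus had floxed Ogt alleles, and Cre, the GFP allele and the reporter used for sorting all differed together with the deletion, so they cannot be told apart. Each genotype had 2 sequencing runs of the same material that could not be separated, which makes 1 library per genotype. No difference between the libraries has a replicate check, no test was made, and every interval below is an exact 95% interval that covers counting error only.

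Endocrine cells store peptide hormones in dense-core granules. Granins help load and shape these granules, the convertases Pcsk1 and Pcsk2 cut prohormones after pairs of basic residues, and Cpe trims the basic residues that the cut leaves behind. Scg5 is a chaperone that Pcsk2 needs to become active, and Pcsk1n encodes a precursor of peptides that inhibit Pcsk1. In the developing pancreas, Neurog3 commits epithelial cells to the endocrine lineage, Fev is switched on in the hormone-poor precursors that follow, and hormone genes come last. Ogt encodes the O-GlcNAc transferase, which adds N-acetylglucosamine to nuclear and cytoplasmic proteins.

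The OGT KO table held 617 barcodes and 11064540 unique molecular identifiers (UMIs, each 1 captured transcript), and the control table held 941 barcodes and 11973979 UMIs. After filters 553 OGT KO and 921 control cells were kept, and no barcode was shared between the tables. Cells were clustered without the 9 genes and without the granule lists, and clusters were named from markers that are not among the 9. Endocrine-like cells, a single cluster in which 15 of the 16 progenitor markers were detected, numbered 42 of the 553 OGT KO cells (7.59%) and 20 of the 921 control cells (2.17%). The sorts left different mixtures around them: leukocyte-like cells made up 3.44% of kept OGT KO cells and 72.0% of kept control cells. Ogt had 21 UMIs in the endocrine-like cells of each library, which is 29.5 in OGT KO and 123 in control cells per 1000000 UMIs (CPM). In acinar-like cells, also of the pancreatic epithelium, Ogt had 38.2 CPM in OGT KO and 37.1 CPM in control cells, and in all other epithelial-like cells together 38.3 CPM in OGT KO and 50.9 CPM in control cells. The lower Ogt level of the library labelled OGT KO was thus not seen in every epithelial class, and whether the counted transcript ends lie in the deleted part was not analysed here.

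All 9 genes had a higher level in endocrine-like than in other epithelial-like cells, in both libraries. Summed over the 9 genes, the level was 6303 CPM in OGT KO endocrine-like cells and 173 CPM in the other 224 epithelial-like cells of that library. In the control library it was 6738 CPM in endocrine-like cells and 187 CPM in the other 85 epithelial-like cells. In OGT KO cells, 9 of 9 genes were at least 2-fold higher in endocrine-like than in other epithelial-like cells, where 16.7% of the 11285 genes with at least 20 UMIs met the same rule. Their ratios ran between 12.6-fold (95% interval 6.76 to 24.1) for Scg5 and 89.6-fold (56.0 to 152) for Pcsk2. In control cells, 6 of the 6 genes with at least 20 UMIs met the rule, against 21.3% of 7998 genes, with ratios between 15.9-fold (11.9 to 21.4) for Cpe and 69.9-fold (43.0 to 119.9) for Pcsk1n. Scg2, Pcsk1 and Scg5 had too few control UMIs for that rule.

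**Figure D1:**
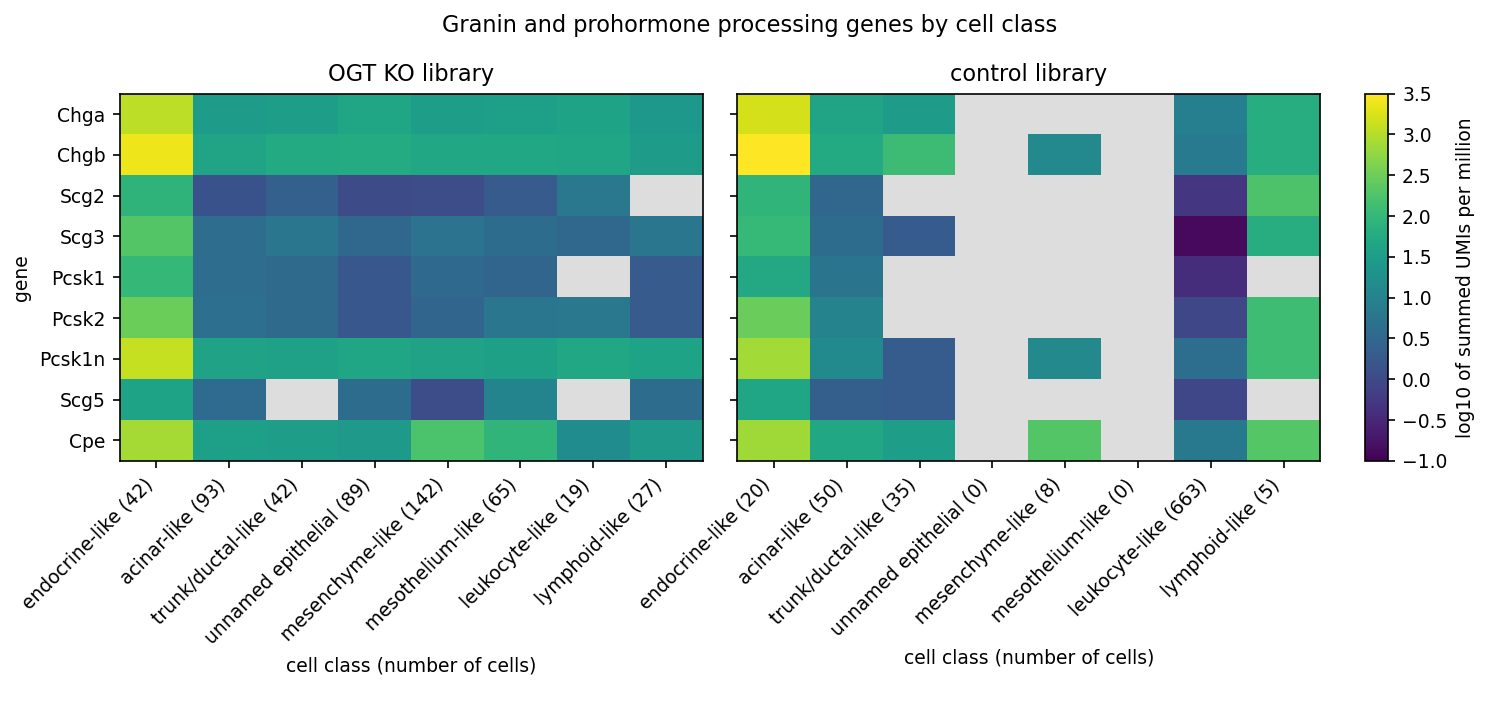
Level of each of the 9 genes (rows) in each cell class (columns, with the number of cells), as log10 of summed UMIs per 1000000, in the OGT KO library (left) and the control library (right); grey marks a class with no UMI of that gene or with no cells. Endocrine-like cells hold the highest level of every gene in the OGT KO library, and Cpe also stands out in mesenchyme-like cells, at 170.2 CPM in OGT KO and 194 CPM in control cells.

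In the OGT KO library, much of the low signal outside endocrine-like cells was at the level of free RNA, that is, RNA released by other cells and captured with any barcode. Leukocyte-like cells, which should lack pancreatic endocrine transcripts, had a summed level of 166 CPM in the OGT KO library and 29.7 CPM in the control library. The OGT KO level of 173 CPM in other epithelial-like cells lay close to that background. The control level of 187 CPM in other epithelial-like cells rested on few cells: 3 of the 85 cells held 234 of the 335 UMIs. Without them it was 59.3 CPM (48.3 to 72.1), still above the control leukocyte-like level of 29.7 CPM. By class it was then 71.6 CPM in acinar-like and 27.4 CPM in trunk/ductal-like control cells, and the source of the remainder was not tested. Of the 3 cells, 1 in the trunk/ductal-like class had 82 UMIs of the 9 genes, 57 of them Chgb, with 16 Fev and 9 Pax6 UMIs. The other two, in the acinar-like class, had 88 and 64 UMIs together with 43 and 21 Neurog3 UMIs and 89 and 98 UMIs of the acinar gene Cpa1. These 2 cells had 35221 and 29763 UMIs in all, against a median of 23318 in control acinar-like cells, and whether either held RNA of more than 1 cell was not tested.

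In mesenchyme-like cells, Cpe was above background. Its level there was 170.2 CPM (151 to 191) from 293 UMIs in 142 OGT KO cells, and 194 CPM (109 to 321) from 15 UMIs in 8 control cells, against 15.6 CPM in OGT KO and 6.68 CPM in control leukocyte-like cells. After thinning to 5000 UMIs per cell, Cpe had a UMI in 47.2% of mesenchyme-like and 10.5% of leukocyte-like OGT KO cells. The median depths before thinning were 11358 and 15414 UMIs. Mesothelium-like cells, present in the OGT KO library alone, had 86.5 CPM of Cpe (69.5 to 106) and 10.6 CPM of Scg5 (5.28 to 18.9). Scg5 had no UMI in the 19 OGT KO leukocyte-like cells, which allows up to 11.5 CPM, so these cells alone cannot separate its mesothelium-like level from background. That level lay above other epithelial-like (3.24 CPM, 1.92 to 5.12), mesenchyme-like (1.16 CPM) and trunk/ductal-like OGT KO cells (0 to 4.37 CPM). Its interval overlapped those of acinar-like (1.87 to 6.71), lymphoid-like (0.472 to 14.1), unnamed epithelial-like (1.58 to 8.10) and other unnamed OGT KO cells (0.491 to 14.6). Whether it exceeds free RNA was not tested. A single mesothelium-like cell had 20 UMIs of the 9 genes, among them 3 of the 11 Scg5 UMIs of that class. The cell also had 36 Tubb3 and 19 Stmn2 UMIs, both neuronal genes, and none of Upk3b or Wt1.

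On mm10, GENCODE M21 places Chga at chr12:102554969-102565028 (plus strand), Chgb at chr2:132781278-132795079 (plus), Scg2 at chr1:79434669-79440120 (minus) and Scg3 at chr9:75643189-75684056 (minus). Pcsk1 lies at chr13:75089826-75134861 (plus), Pcsk2 at chr2:143546156-143816285 (plus), Scg5 at chr2:113776362-113829121 (minus) and Cpe at chr8:64592542-64693054 (minus). The promoters of several of these genes hold the same short element, which is shown because the genes were high in the same cells. RefSeq promoter entries on GRCm38.p6 were matched for 8 of the 9 genes, and the 250 bases before the start of transcription were searched on both strands for motifs chosen with the promoters in view. The palindromic cAMP response element TGACGTCA lay in 3 of 8 promoters, those of Scg2, Chgb and Pcsk1, and in 1.55% of 32851 mouse promoters. With TGACGTNA, which contains the first motif, Chga was added, making 4 of 8 against 2.52% of all promoters. Capitals mark the motif in the 30-base windows below, written 5′ to 3′ on the strand of the gene.
Chga: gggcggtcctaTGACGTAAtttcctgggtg
Chgb: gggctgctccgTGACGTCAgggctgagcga
Scg2: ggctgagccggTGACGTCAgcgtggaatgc
Pcsk1: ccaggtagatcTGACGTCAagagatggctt
The windows lie at chr12:102554886-102554915 (plus strand, Chga), chr2:132781559-132781588 (plus, Chgb), chr1:79440076-79440105 (minus, Scg2) and chr13:75089768-75089797 (plus, Pcsk1). Their motifs begin 44, 72, 68 and 78 bases before the RefSeq start, in the order listed. The Chgb and Scg2 windows lie inside the genes as GENCODE draws them, which start further upstream than the RefSeq entries. The GC box GGGCGG was in 5 of 8 promoters, against 32.7% of all promoters, and TATAAA was in 0 of 8, against 12.4%. The letters are a description of these windows, and no binding was measured.

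Between the libraries, 3 of the 9 genes were at least 1.5-fold higher in OGT KO than in control endocrine-like cells (Scg3, Pcsk1 and Pcsk1n) and 0 were at least 1.5-fold lower. Among the 6000 genes with 20 or more UMIs in both libraries together, 23.0% were that much higher and 17.2% that much lower, so the counts for the 9 genes lie near those of genes in general. The median log2 ratio was 0.04 over the 9 genes and 0.04 over all 6000. The summed level of 6303 CPM in OGT KO (4483 UMIs) against 6738 CPM in control cells (1153 UMIs) gave a ratio of 0.935 (0.877 to 0.999).

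Among the granins, the chromogranins were lower in OGT KO and Scg3 was higher. Chga, the precursor of several regulatory peptides, had 1111 CPM in OGT KO and 1625 CPM in control endocrine-like cells, a ratio of 0.684 (0.596 to 0.787). Chgb, its close relative, had 2398 CPM in OGT KO and 3068 CPM in control cells, a ratio of 0.782 (0.709 to 0.864). Both intervals exclude 1 but leave out the spread between cells, and neither ratio passed 1.5-fold. Control cells of 4828, 7042 and 4740 UMIs held 99, 140 and 114 of the 525 control Chgb UMIs. Without the 2 cells of each library with most UMIs of the 9 genes, the ratio was 0.924 for Chga and 0.849 for Chgb. Scg3, which binds Chga and tethers it to the granule membrane, had 195 CPM in OGT KO and 105 CPM in control cells, 1.86-fold higher in OGT KO (1.13 to 3.23). Scg2, the precursor of secretoneurin, had 84.4 CPM in OGT KO and 87.7 CPM in control cells, from 60 and 15 UMIs, a ratio of 0.962 (0.540 to 1.82).

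Both convertases were present at low counts. Pcsk1 had 71 UMIs in OGT KO and 9 UMIs in control endocrine-like cells, or 99.8 and 52.6 CPM, and its ratio of 1.90 had an interval that includes 1 (0.945 to 4.32). Pcsk2 had 306 CPM in OGT KO and 298 CPM in control cells, a ratio of 1.03 (0.755 to 1.42). Pcsk1n, the source of the Pcsk1 inhibitor, had 1275 CPM in OGT KO and 742 CPM in control cells, 1.72-fold higher in OGT KO (1.43 to 2.09). Scg5 had 40.8 CPM in OGT KO and 46.7 CPM in control cells from 29 and 8 UMIs, a ratio of 0.872 (0.389 to 2.21). Cpe had 792 CPM in OGT KO and 713 CPM in control cells, a ratio of 1.11 (0.911 to 1.36). At a mitochondrial limit of 5%, which left 25 OGT KO and 10 control cells, the ratio was 0.450 for Chga, 0.431 for Chgb, 1.23 for Pcsk1n and 1.38 for Scg3. With each library clustered alone the control class held 62 cells. In that setting 0 control cells were called trunk/ductal-like, against 35 with both libraries clustered together. All 9 ratios were then above 1.5, among them 2.46 for Chga and 2.82 for Chgb. The direction of the chromogranins thus depends on which control cells are counted, and the identity of the added control cells was not tested.

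Several measures moved with the library. Pcsk1n, like Ogt, lies on the X chromosome (chrX:7919822-7924410, plus strand, mm10), and Xist, the RNA of the inactive X, had a UMI in 42 of 42 OGT KO and 5 of 20 control endocrine-like cells. The 13 leukocyte markers, each with a UMI in both libraries, summed to 522 CPM in OGT KO and 3407 CPM in control endocrine-like cells, with 11 of 11 measured markers lower in OGT KO. The 20 acinar markers summed to 8873 CPM in OGT KO and 4324 CPM in control cells, with 11 of 12 measured markers higher in OGT KO and Pnlip and Amy2a5 at 0 in both. The 16 mesenchyme markers summed to 2576 CPM in OGT KO and 853 CPM in control cells, with 9 of 10 measured markers higher in OGT KO and Pdgfrb at 0 in both. The free RNA level of the 9 genes, read from leukocyte-like cells, was also higher in the OGT KO library, at 40.7 CPM for Chga against 8.61 CPM in control cells. Median depth was 16608 UMIs per OGT KO and 7576 per control endocrine-like cell. The 6 liver markers summed to 4349.8 CPM in OGT KO and 1537 CPM in control cells, with 2 of 2 measured markers higher in OGT KO and Afp, Apoa1 and Fgb at 0 in control cells. The liver list includes Ttr, which is also among the endocrine hormone markers. Its sum in endocrine-like cells is therefore not a measure of liver RNA alone. The part of these measures in the ratios was not tested, apart from the free RNA level. Thinning to 5000 UMIs per cell left 42 OGT KO and 15 control cells and weighted each cell equally. Among the control cells left out, 1 of 4828 UMIs held 99 Chgb UMIs and 1 of 4740 UMIs held 114. Thinning thus changed which cells were counted as well as their depth, and it cannot isolate depth. The ratio after thinning was 0.981 for Chgb, 1.43 for Scg3, 0.905 for Cpe, 0.429 for Scg2 and 0.999 for the sum. With the free RNA level subtracted, 3 genes were still at least 1.5-fold higher and 1 was at least 1.5-fold lower.

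**Figure D2:**
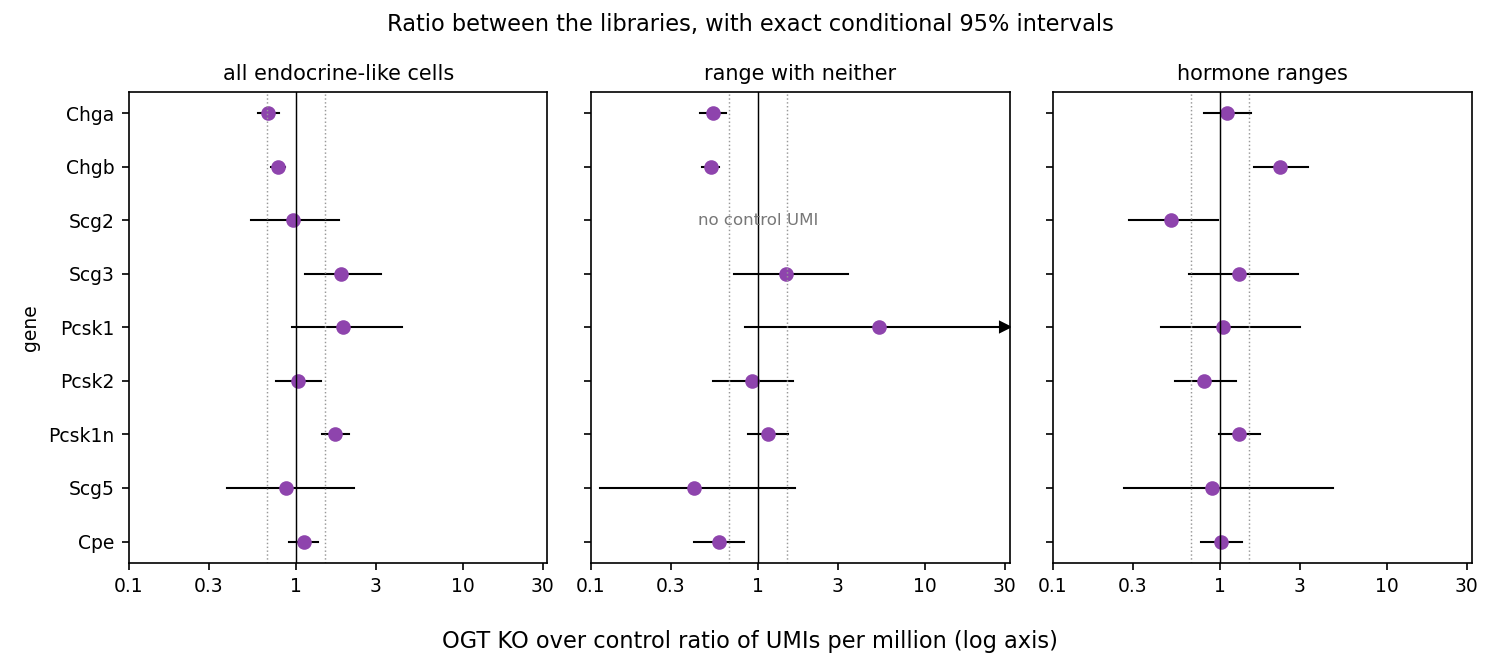
OGT KO over control ratio of UMIs per 1000000 for each of the 9 genes (log axis), with exact conditional 95% intervals, in all endocrine-like cells (left), in the range with neither a hormone nor Neurog3 (middle) and in the hormone ranges (right); dotted lines mark 1.5-fold and an arrow an interval that runs past the axis. Chga and Chgb lie below 1 in the middle panel, at 0.537 and 0.521, and at 1.10 and 2.28 in the right one.

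Shares of cells with a UMI depend on depth and were compared after thinning. At 5000 UMIs per cell, 42 OGT KO cells and 15 of the 20 control cells could be compared. Cpe had a UMI in 83.3% of OGT KO (68.6 to 93.0) and 73.3% of control cells (44.9 to 92.2), Pcsk1n in 81.0% of OGT KO and 60.0% of control cells, and Chga in 78.6% of OGT KO and 60.0% of control cells. Scg2 was the least often seen, in 16.7% of OGT KO and 6.67% of control cells. Unthinned, Chga had a UMI in 92.9% of OGT KO and 65.0% of control cells. In leukocyte-like cells Chga had a thinned share of 15.8% in OGT KO (3.38 to 39.6) and 3.67% in control cells (2.31 to 5.50), which is read here as background. The median depth of leukocyte-like cells before thinning was 15414 UMIs in OGT KO and 10433 UMIs in the control library. Without thinning, at median depths of 16608 UMIs in OGT KO and 7576 UMIs in control endocrine-like cells, all 9 genes together were seen in 6 OGT KO and 0 control cells, and 0 OGT KO and 4 control cells had no UMI of any. Those 4 control cells had 4560, 12822, 14463 and 14896 UMIs in all, with 7, 51, 136 and 97 Neurog3 UMIs, so most were deeper than the control median. Background also differed, with a summed leukocyte-like level of 166 CPM in OGT KO and 29.7 CPM in control cells.

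Endocrine-like cells were divided into ranges by Neurog3 and hormone UMIs, which the 9 genes did not enter. A cell with at least 0.5% of its UMIs on 1 hormone took that hormone's range, any other cell with at least 3 Neurog3 UMIs took the Neurog3 range, and the rest had neither. The Neurog3 range held 12 OGT KO and 8 control cells, the range with neither 10 and 5, and the hormone ranges 20 and 7. These are ranges of a score and not cell types: 8 OGT KO cells and 1 control cell had a leading hormone at 0.2% to 1% of UMIs, close to the limit.

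The summed level was highest in the range with neither, in both libraries. In OGT KO cells it was 3094 CPM in the Neurog3 range (2858 to 3344), 11574 CPM with neither (11024 to 12143) and 6032 CPM in the hormone ranges (5782 to 6291). In control cells it was 1140.0 CPM (914 to 1404), 19025 CPM (17737 to 20382) and 4965 CPM (4374 to 5613) in the same ranges. Fev was also highest in the range with neither, at 709 CPM in OGT KO and 1550.2 CPM in control cells. By single cell, the lowest, median and highest summed levels with neither were 2722, 11679 and 20332 CPM in OGT KO and 7647, 31690.1 and 35443 CPM in control cells, and the libraries overlap.

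**Figure D3:**
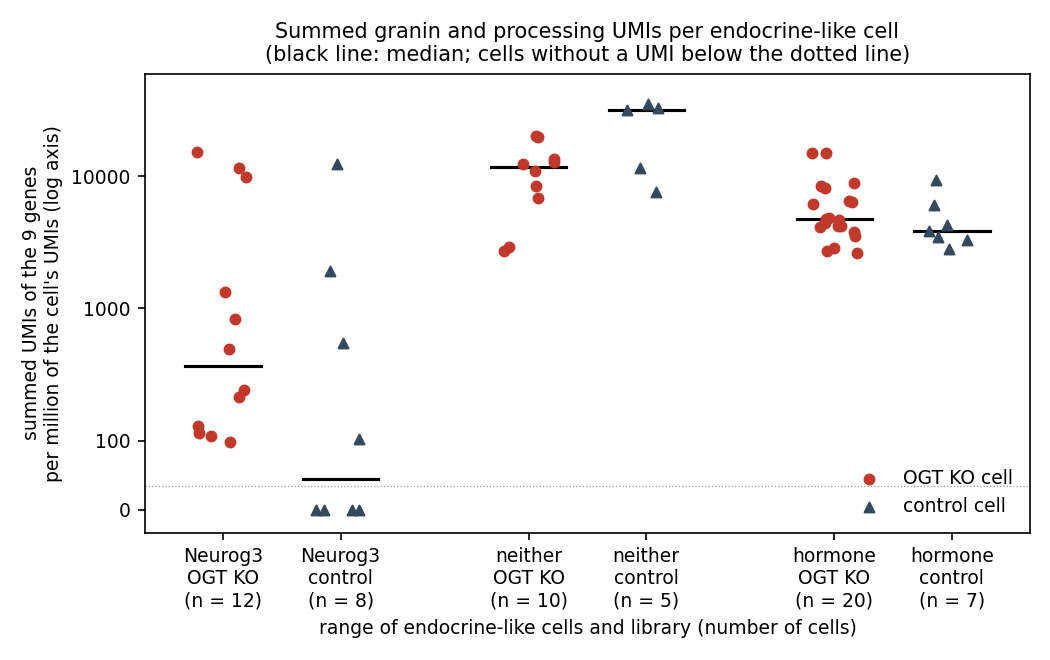
Summed UMIs of the 9 genes per 1000000 of a cell's UMIs (log axis, with cells at 0 drawn below the dotted line) for each endocrine-like cell, by range and library, with the median as a black line. Most Neurog3-range cells sit low, with a median of 365 CPM in OGT KO and 51.1 CPM in control cells, and the lowest cell of the other ranges has 2641 CPM.

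Within the Neurog3 range, a few cells held most of the UMIs of the 9 genes. The division at 50 UMIs was chosen after the values were seen. Of the 12 OGT KO cells, 3 had between 181 and 195 UMIs of the 9 genes, and all of those had Fev (11 to 18 UMIs). The other 9 OGT KO cells had 2 to 32 UMIs. Of these, 1 had Fev, with 39 UMIs, more than any of the 3 high cells, beside 32 UMIs of the 9 genes. Of the 8 control cells, 1 had 68 UMIs and 8 Fev UMIs, and the other 7 had 0 to 15 UMIs with no Fev. The 9 low OGT KO cells together had 436 CPM and the 7 low control cells 279 CPM, against the leukocyte-like 166 CPM in OGT KO and 29.7 CPM in control cells. Across endocrine-like cells, Cpe and Neurog3 had a Spearman rho of -0.63 in OGT KO (42 cells) and -0.67 in control cells (20 cells). With Neurog3, Chga had -0.31 in OGT KO and -0.43 in control cells, Chgb -0.37 and -0.54, and Pcsk1n -0.52 and -0.66. Such values, given as a description, are between cells of 1 library that share its free RNA and differ in depth.

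The chromogranins were highest in the range with neither, between the Neurog3 and hormone ranges. Chgb had 1758, 5665 and 1463 CPM in the Neurog3, neither and hormone ranges of OGT KO cells, and 376, 10875 and 643 CPM in those of control cells. Chga had 481, 2433 and 943 CPM in OGT KO and 531, 4533 and 857 CPM in control cells. With neither, both were lower in OGT KO, by a ratio of 0.537 for Chga (0.449 to 0.643) and 0.521 for Chgb (0.464 to 0.585). Only 5 control cells lie behind these ratios, and single cells of the libraries overlap. The lowest, median and highest Chgb levels with neither were 78.6, 5226 and 13274 CPM in OGT KO cells. In control cells they were 3165, 19881 and 24051 CPM. In the hormone ranges, the ratio of Chgb was 2.28 (1.60 to 3.34), higher in OGT KO, and 1 control cell held 66.7% of the control UMIs there. Scg3 had 58.3, 313 and 227 CPM in OGT KO and 0, 211 and 175 CPM in control cells. Scg2 followed another course: it had no UMI in the Neurog3 range of either library and was highest in the hormone ranges, at 149 CPM in OGT KO and 292 CPM in control cells, where 1 control cell, in the insulin range, held 73.3% of the UMIs.

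Cpe and Pcsk2 did not have the fall of the chromogranins in the hormone ranges. Cpe had 194, 709 and 1164 CPM in the Neurog3, neither and hormone ranges of OGT KO cells and 142, 1221 and 1149 CPM in those of control cells. Pcsk2 had 0, 410.1 and 439.8 CPM in OGT KO and 51.8, 446 and 545 CPM in control cells, where all 4 control UMIs of the Neurog3 range came from 1 cell. Pcsk1n had 544, 1828 and 1471 CPM in OGT KO and 13.0, 1597 and 1129 CPM in control cells. The Neurog3-range control value is 1 UMI. Within the other ranges the ratio of Pcsk1n had an interval of 0.874 to 1.52 with neither and of 0.992 to 1.74 in the hormone ranges, and both include 1. Pcsk1 had 43.7, 125 and 122 CPM in OGT KO and 25.9, 23.5 and 117 CPM in control cells, from 2, 1 and 6 control UMIs.

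**Figure D4:**
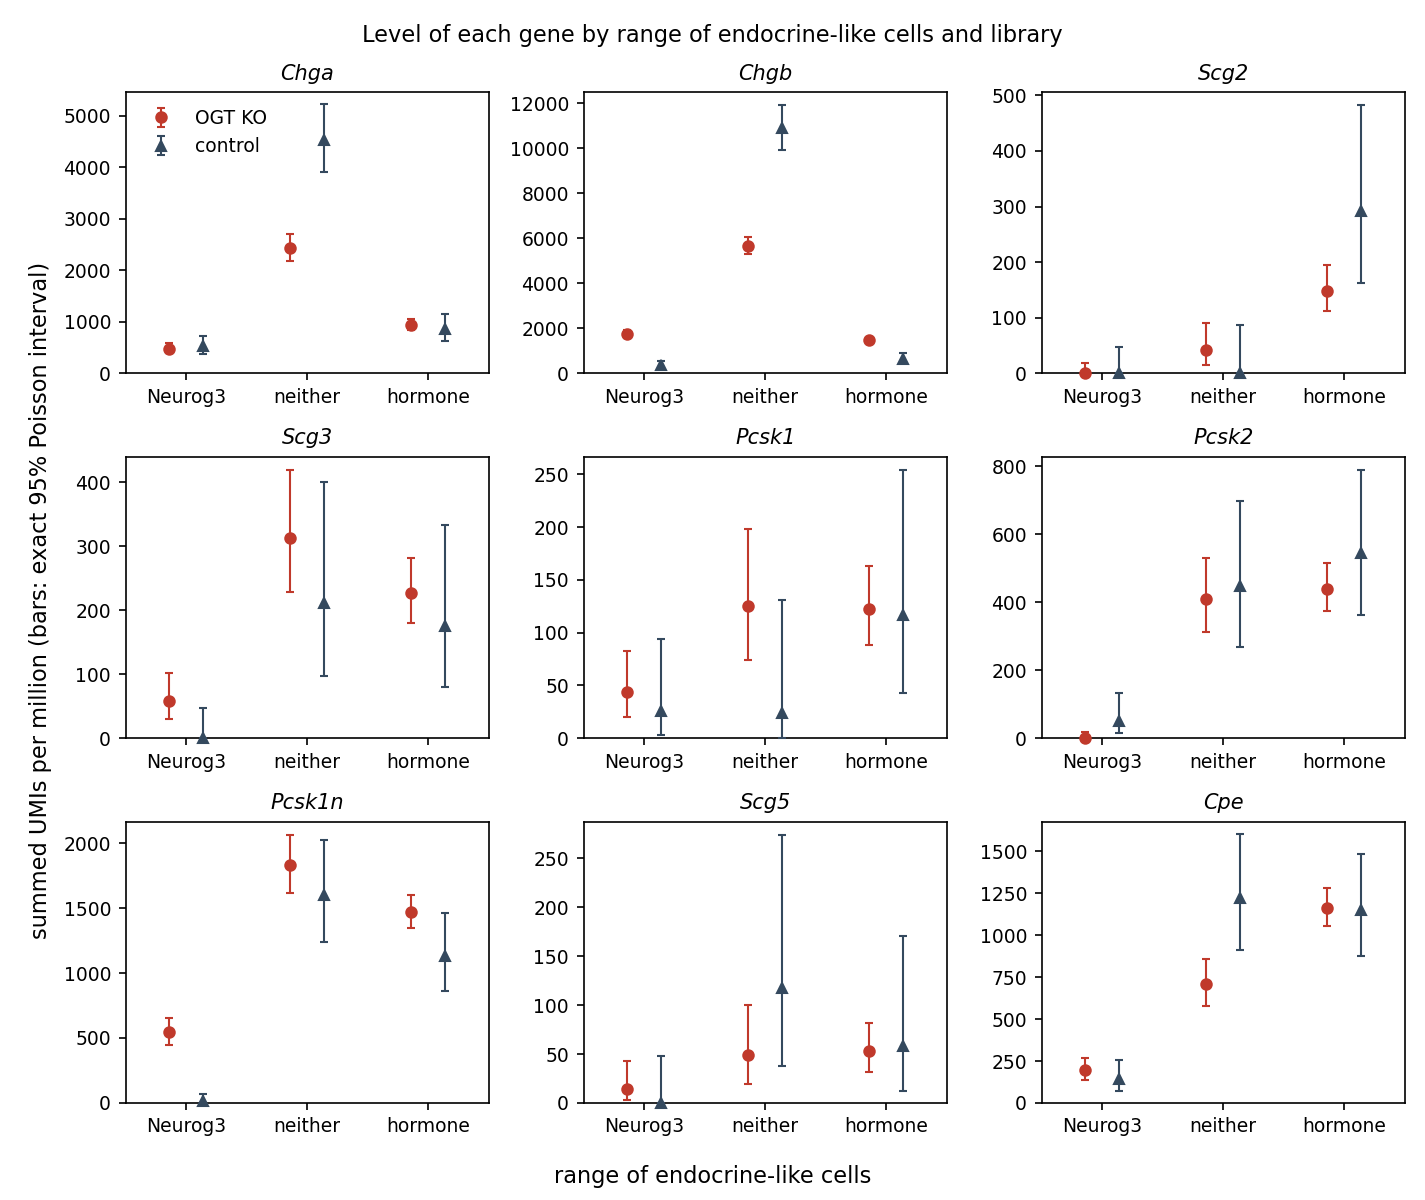
Level of each of the 9 genes in the Neurog3, neither and hormone ranges, as summed UMIs per 1000000 with exact 95% Poisson intervals, for OGT KO (red circles) and control cells (dark triangles). Chga and Chgb peak in the middle range in both libraries, while Cpe has 1164 CPM in OGT KO and 1149 CPM in control cells in the hormone ranges, and Scg2 is highest there.

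Convertase UMIs, above all those of Pcsk2, differed among the hormone ranges of OGT KO cells. In the 7 OGT KO cells of the Ghrl range (ghrelin, a hormone of a minor islet cell type), Pcsk1 had 17 UMIs in 6 cells and Pcsk2 had 0 UMIs in all 7 (0 to 30.6 CPM). In the 2 OGT KO cells of the Gcg range (glucagon), Pcsk1 had 0 UMIs and Pcsk2 had 12 UMIs in each cell, a level of 587 CPM (376 to 874). The Pcsk1 interval of the Gcg range, 0 to 90.3 CPM, overlaps those of the Ghrl range (82.0 to 225) and of the Pyy range. In the 10 OGT KO cells of the Pyy range (peptide YY), Pcsk1 had 14 UMIs in 6 cells and Pcsk2 had 85 UMIs in 8 cells, or 82.5 CPM (45.1 to 138) and 501 CPM (400.0 to 619). The single OGT KO cell of the insulin range had 13 Pcsk1 and 50 Pcsk2 UMIs. The Pcsk2 intervals of the Ghrl and Pyy ranges do not overlap, and 1 OGT KO library was measured.

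Control hormone cells were few and had fewer UMIs. The single Gcg-range control cell had 5 Pcsk2 UMIs and no Pcsk1 UMI. The single Ghrl-range control cell had 4 Pcsk2 UMIs and no Pcsk1 UMI, the reverse of the OGT KO Ghrl range, and it also had 49 Pyy UMIs beside 276 of Ghrl. The insulin-range control cell had 4 UMIs of each convertase, and the 4 Pyy-range control cells had 2 Pcsk1 and 15 Pcsk2 UMIs in all. Glucagon is made from its precursor with Pcsk2 and insulin with both convertases, which is textbook knowledge and was not measured here. Chgb also differed among OGT KO hormone ranges, at 224 CPM in the Ghrl range (147 to 325), 220.3 CPM in the Gcg range (101 to 418) and 2657 CPM in the Pyy range (2418 to 2914).

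**Figure D5:**
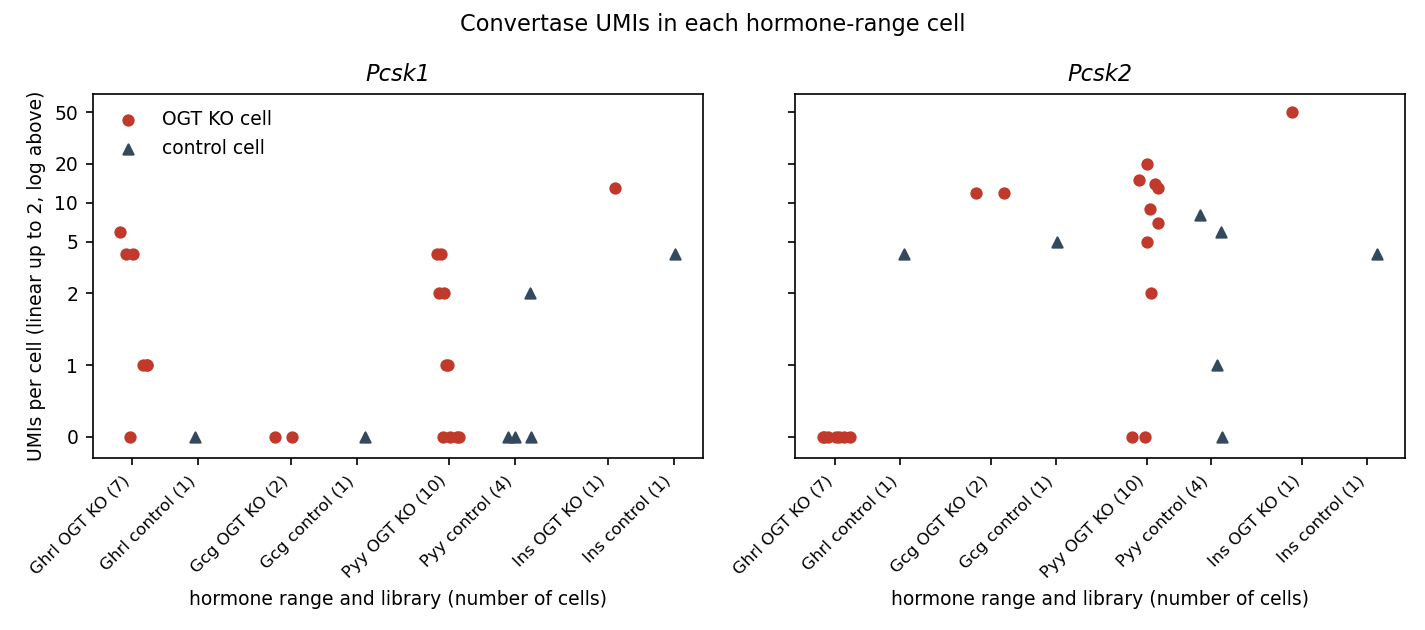
UMIs of Pcsk1 (left) and Pcsk2 (right) in each endocrine-like cell of a hormone range (linear up to 2 and log above), by range and library with the number of cells. All 7 OGT KO cells of the Ghrl range are at 0 for Pcsk2, whereas 8 of the 10 OGT KO cells of the Pyy range have 2 to 20 UMIs.

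Genes of the same granules were counted from 2 lists of 30 genes each. Of the dense-core granule and processing list, 15 genes reached the minimum of 20 UMIs. Of these, 4 were at least 1.5-fold higher in OGT KO, 2 lower and 9 between, with a median log2 ratio of 0.32, beside 23.0% higher, 17.2% lower and a median of 0.04 over all genes measured. The highest were Cltrn, a membrane protein of beta cells, at 491 CPM in OGT KO and 99.3 CPM in control cells (4.94-fold, 3.04 to 8.58), and Resp18, a granule luminal protein, at 105 and 23.4 CPM (4.51-fold, 1.69 to 17.0). Hid1 and Ptprn, which act in granule formation, followed at 2.57-fold each from 3 control UMIs each (0.803 to 13.1). The lowest were the ubiquitous convertase Furin at a ratio of 0.454 (0.192 to 1.16), the proton pump accessory Atp6ap2 at 0.531 (0.322 to 0.900), Ptprn2 at 0.703 (0.485 to 1.04) and the amidating enzyme Pam at 0.806 (0.555 to 1.20). Of the granule exocytosis list, 20 genes were measured; 1 was higher in OGT KO, 3 were lower and 16 were between, with a median log2 ratio of -0.03, beside the same shares of all genes. Rab27a, a granule GTPase, was 3.21-fold higher in OGT KO (1.02 to 16.2), followed by Rab3d at 1.48, Rab3b at 1.44 and the calcium sensor Syt5 at 1.29. Syt7 was at 0.548 (0.349 to 0.879), Vamp3 at 0.550 (0.323 to 0.967), Syt11 at 0.601 (0.221 to 1.89) and Cadps, a priming factor, at 0.809 (0.404 to 1.76).

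Both granule lists were also set against other epithelial-like cells. In OGT KO cells, 11 of 25 measured genes of the granule and processing list and 17 of 24 of the exocytosis list were at least 2-fold higher in endocrine-like than in other epithelial-like cells, beside the 16.7% of all genes. In control cells the counts were 8 of 15 and 7 of 12, beside 21.3% of all genes. In OGT KO cells, Cadps was 72.3-fold higher in endocrine-like cells (26.0 to 279) and Ptprn2 46.9-fold (28.7 to 80.7), whereas the ratio of Furin was 0.800 (0.455 to 1.32).

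The hormones that pass through these granules differed in level between the libraries. All 8 hormone genes were past 1.5-fold, 5 higher and 3 lower in OGT KO, where 23.0% of all genes measured were higher and 17.2% lower, shares that also apply to the counts that follow. Pyy had 10932 CPM in OGT KO and 2758 CPM in control cells (3.96-fold, 3.61 to 4.36), and Ghrl 4215 and 1946 CPM (2.17-fold, 1.93 to 2.43). For Ghrl, 1 control cell held 276 of the 333 control UMIs. Ins2 had 1246 CPM in OGT KO and 10863 CPM in control cells, a ratio of 0.115 (0.106 to 0.124), and 1 cell per library held most of it. Of the 18 endocrine transcription factors measured, 3 were higher, 5 lower and 10 between. Neurog3 was lower at 0.400 (0.355 to 0.453) and Fev lower at 0.593 (0.461 to 0.769). All 4 gut endocrine hormones past the 20 UMI minimum were higher, among them Cck at 3.54-fold (2.28 to 5.80) and Gip at 10.2-fold from 2 control UMIs (2.74 to 85.8). Below that minimum, Tac1 had 4 UMIs in OGT KO and 11 in control cells, a ratio of 0.0875 (0.0203 to 0.295). Tph1 had 1 UMI in OGT KO and 3 in control cells, a ratio of 0.0802 (0.00153 to 0.999), and Nts had none. The 14 stomach and gut markers, which include the 4 gut endocrine hormones past the minimum, summed to 1188 CPM in OGT KO and 456 CPM in control endocrine-like cells. Of the measured markers, 5 of 5 were higher in OGT KO, and Gkn2, Muc5ac and Nts were at 0 in both. The part of the 14 markers in the ratios was not tested.

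The genes whose levels ran closest with the summed level of the 9 across epithelial-like cells were Aplp1, Hmgn3 and Gnas. Pearson's r of log-scaled levels was computed in 266 OGT KO and 105 control cells and averaged over the libraries, among 2611 genes with at least 100 UMIs in each. It was 0.81 for Aplp1, a relative of the amyloid precursor, 0.80 for the nucleosome-binding Hmgn3 and 0.74 for Gnas, which encodes a stimulatory G protein subunit. Fev followed at 0.72, with 0.62 in OGT KO and 0.81 in control cells, then Lrpprc (0.67), Pyy (0.64), Tspan7 (0.63), Prrg2 (0.61), Tox3 (0.60) and Tuba1a (0.60). Of the 9 genes themselves, Chga had 0.90 in OGT KO and 0.91 in control cells and Cpe 0.87 and 0.91, as parts of that sum. Such r values describe the order of cells within a library, whose cells share free RNA and differ in depth, and carry no test.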

How the data were processed

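UMI counts per gene and cell were used as deposited by the authors, in 1 table per genotype with no normalization. Reads had been processed with Cell Ranger 2.0.0 on mm10, and Seurat 2.0 and DESeq2 1.14.1 are also named, per the submitters' processing notes; the sources used here give neither the cell-calling filter nor the number of embryos. Gene identifiers were paired with symbols from GENCODE M21, and 353 of 27998 had none (0.0294% of UMIs).

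The members, gene lists and comparisons were chosen with earlier results of these data known, and motifs and some ranges' divisions after values were seen. Barcodes below 500 genes or above 10% mitochondrial UMIs were dropped. Scrublet, run on each library through scanpy 1.11.5, removed 8 OGT KO (1.43%) and 4 control (0.432%) cells. Its share is low, so undetected doublets may remain. Cells of both libraries were clustered together (2000 variable genes without the 9 genes and the granule lists, 30 components, 15 neighbours, Leiden resolution 1 with leidenalg 0.10.2). Clusters were named by their best-scoring marker list, given 5 or more detected markers (above 50 CPM and above 0.25 of that marker's maximum) and a top 10 of genes not dominated by another list's markers. Unnamed clusters were counted as epithelial-like above a score of 0.4 on the epithelial list.

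Levels are UMIs summed over cells per 1000000 (CPM). Intervals are exact Poisson for levels, exact conditional for ratios and exact binomial for shares, at 95%. A ratio was called at 1.5-fold between libraries or 2-fold between classes, for genes with at least 20 UMIs. A gene without a UMI in 1 group was set to 3 counts for the call. The named genes were all 9, the 4 highest and 4 lowest ratios of each granule list, hormones and transcription factors set beside them, and the 10 genes of highest likeness. The ratio intervals were run on simulated counts with Poisson error alone, which leaves out spread between cells and between embryos. Alternatives to the filters, clustering, scaling (edgeR 4.0.16 and DESeq2 1.42.0 factors), thinning and minimums were run.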

Additional observations from a re-analysis of the deposited data

Results flagged for a closer look

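Of the barcodes removed before the comparisons, 3 from the OGT KO library carried more UMIs of the 9 genes than any removed control barcode, of which the highest had 2. The first, removed for its doublet score, had 81 such UMIs, 39 of them Pcsk1n and 0 of Pcsk2, with 397 Ghrl and 118 Pyy UMIs. The second had 51 and the third 34, and both were removed for a mitochondrial share above 10% (11.5% and 16.4%). Removed barcodes numbered 64 in the OGT KO and 20 in the control library. Whether these 3 were intact endocrine cells was not tested.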

How the results depend on the processing

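No paired analysis was possible because the 2 sequencing runs of a genotype cannot be separated in the tables, and for the same reason leaving out each replicate was not run. The count of 3 genes at least 1.5-fold higher in OGT KO endocrine-like cells became 9 when each library was clustered alone. That setting put 62 control cells in a class called endocrine-like and 0 in one called trunk/ductal-like. Among alternatives chosen after seeing the data the count was 0 in the range with neither and 1 in the hormone ranges. The count of 0 genes at least 1.5-fold lower became 3 at a mitochondrial limit of 5% (25 OGT KO and 10 control cells) and 3 with the mean of cells' own levels. It was 1 after thinning, 1 with the leukocyte-like level subtracted, 3 with neither, 1 in the hormone ranges and 1 with OGT KO ranges weighted as in the control library. The summed ratio of 0.935 was 0.616 at the 5% limit, 0.775 with cells' own levels, 0.999 after thinning and 0.608 with neither. It turned to 3.32 with libraries clustered alone, 1.26 with cells chosen by transcription factor UMIs (46 OGT KO and 31 control cells), 1.13 without the 2 cells of each library with most UMIs of the 9 genes, 1.21 in the hormone ranges and 2.71 in the Neurog3 range. The cause was not tested. The counts of 9 OGT KO and 6 control genes at least 2-fold higher in endocrine-like cells kept within 1.5 times of their value in every alternative run. Genes in at least 50% of control cells numbered 3 thinned and 5 unthinned. With a hormone minimum of 0.2%, the summed level was 6525 CPM in OGT KO and 7540.4 CPM in control hormone ranges, and 12479 CPM in OGT KO and 16968 CPM in control cells with neither. With 1% it was 9843 CPM in OGT KO cells with neither. Scaling by edgeR or DESeq2 factors shifted every log2 ratio by -0.03. Leaving aside single ranges and the reweighted mix, the ratio of Pcsk1 lay between 1.57 and 6.32 over the settings of filter, clustering, scaling and thinning, that of Pcsk1n between 1.23 and 6.65, and that of Scg3 between 1.38 and 6.27. In the hormone ranges alone it was 1.04 for Pcsk1, 1.30 for Pcsk1n and 1.29 for Scg3. Over the same settings the ratio of Chga ran between 0.450 and 2.46. Only 20 control cells and 171129 UMIs lie behind the control values, which limits Pcsk1, Scg5 and Scg2 most.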

Other observations

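In the lymphoid-like class of the control library, 2 of 5 cells held 42 of the 52 UMIs of the 9 genes. One had 27, with 285 Pyy and 43 Sst UMIs, and the other had 15, with 30 Pyy UMIs, and neither had a UMI of the lymphoid markers Cd7, Ltb or Cd79a. Without both, the summed level of that class was 224 CPM (108 to 413), against 826 CPM with them.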
